A study of Mus musculus with 6 samples.

Results

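The 10 granule genes of neutrophils were followed through RNA sequencing of CD31+ckit+Vmed and CD31+ckit+Vhigh cells: *Mpo*, *Elane*, *Prtn3* and *Ctsg* of the primary granules, and *Ltf*, *Camp*, *Ngp*, *Lcn2*, *S100a8* and *S100a9*, which are expressed later. They were chosen by name, as the 10 rows with these symbols among the 24062 genes of each count file. The cells came from E10.5 aorta-gonad-mesonephros (AGM) regions of embryos heterozygous for Gata2Venus, a reporter placed in the *Gata2* locus so that Venus fluorescence follows *Gata2* transcription, on a C57BL/6JOlaHsd background per the labels. All 6 libraries share this genotype, age and the CD31+ckit+ gate, and they differ in the level of Venus, with 3 libraries of the medium fraction (Vmed, labelled G2Vi) and 3 of the high fraction (Vhigh, labelled G2Vh). CD31 is an endothelial and hematopoietic surface protein and ckit the stem cell factor receptor, so the gate can hold emerging hematopoietic cells, endothelial cells and myeloid cells. The labels do not say whether the libraries of a fraction came from separate pools of embryos. The paper describes its RNA sequencing values as means of 3 independent experiments and does not describe the pools. The p-values measure only the spread between these libraries.

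Neutrophils fill their granules in an order set by the stage at which each gene is transcribed. Promyelocytes make the primary (azurophil) granules, which carry myeloperoxidase and the serine proteases neutrophil elastase, proteinase 3 and cathepsin G. Myelocytes and later stages make the secondary and tertiary granules with lactoferrin, cathelicidin, neutrophilic granule protein and lipocalin 2, and mature neutrophils and monocytes hold the cytosolic pair S100A8 and S100A9. *Mpo* is also transcribed before the granules form, in early myeloid progenitors.

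The libraries held between 8296831 and 12035206 counts on genes, so that 3 counts, taken as the smallest number that can be told from 0, correspond to 0.249 to 0.362 CPM (each gene's count scaled to a common total of gene counts). Genes with a count ranged from 10427 in Vhigh replicate 1 to 18460 in Vhigh replicate 2. The ribosomal transcript row *Rn45s* took 0.887% to 10.5% of the counts, with the highest shares in the libraries numbered 3. The 8 progenitor and gate markers, *Pecam1* (CD31), *Kit* and *Gata2* among them, had counts in all 6 libraries. *Gata2*, whose reporter defines the fractions, had 50.3, 29.4 and 68.3 CPM in Vmed and 39.2, 82.5 and 142 CPM in Vhigh. The fractions overlapped in *Gata2* (log2 fold change 0.78, SE 0.73), and Vhigh replicate 1 lay below Vmed replicates 1 and 3. The label gives the Venus fluorescence at the sort, whereas these values are RNA. Macrophage and monocyte markers (12 genes, 8 of them with counts in every library) summed to between 1053 and 1813 CPM in Vmed and between 144 and 544 CPM in Vhigh. Endothelial markers (8 genes, all in every library) summed to 957, 3279 and 4229 CPM in Vmed and to 861, 1055 and 3058 CPM in Vhigh, so that both libraries numbered 1 were low in them.

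Of the 10 genes, *Mpo* and *Prtn3* had counts in all 6 libraries, *Elane*, *S100a8* and *S100a9* in 4 each, *Ltf*, *Camp* and *Ngp* in 2, *Lcn2* in 1 and *Ctsg* in none. The plot of the 10 genes by library shows this split.

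**Figure D1:**
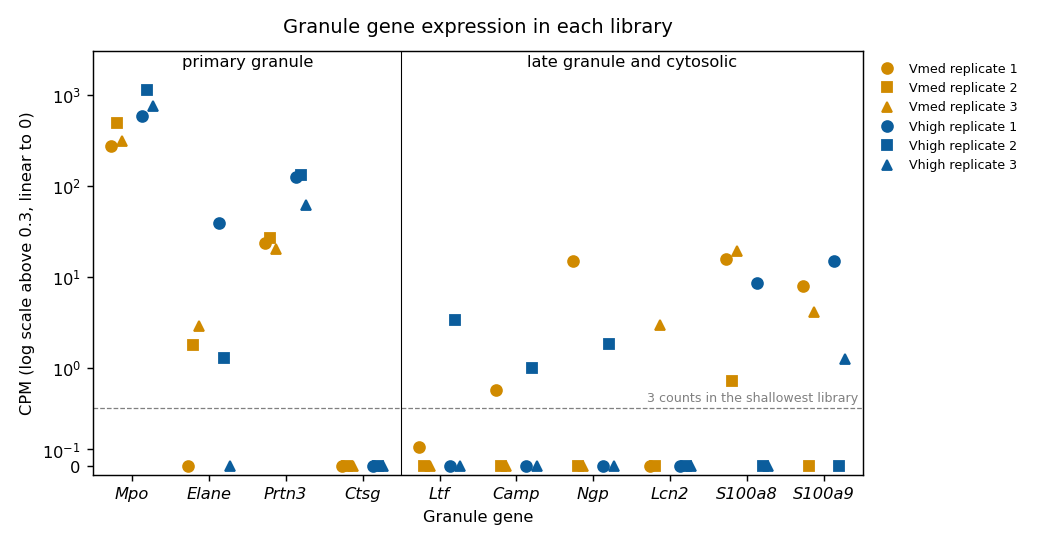
Expression of the 10 granule genes in each library, in CPM on a log scale that turns linear toward 0, with Vmed in orange and Vhigh in blue and one symbol per replicate number; the dashed line is 3 counts in the shallowest library. *Mpo* and *Prtn3* lie higher in each Vhigh library than in any Vmed library, whereas most points of *Ltf*, *Camp*, *Ngp* and *Lcn2* lie at 0.

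*Mpo* encodes myeloperoxidase, the heme enzyme that makes hypochlorous acid. It lies on chromosome 11 of GRCm38 from 87793581 to 87804413 on the plus strand and has 14 exons in its longest transcript. *Mpo* reached 272, 493 and 311 CPM in Vmed replicates 1, 2 and 3 and 584, 1130 and 748 CPM in the Vhigh replicates. The lowest Vhigh value was above the highest Vmed value. Among the genes with a count, *Mpo* ranked from the 94.8th to the 99.7th percentile of CPM across the 6 libraries. Its mean was 359 ± 118 CPM (SD, n = 3) in Vmed and 821 ± 280 CPM (SD, n = 3) in Vhigh. The quasi-likelihood test of edgeR gave a log2 fold change, Vhigh over Vmed, of 1.14 (standard error, SE, 0.43) with an unadjusted p = 0.025 and, over all genes tested, an adjusted p = 0.9998, so *Mpo* did not pass the threshold of 0.05. Within the libraries that share a number, *Mpo* was 2.15-fold, 2.29-fold and 2.40-fold higher in Vhigh.

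*Prtn3* encodes proteinase 3, a serine protease of the same granules. It lies on chromosome 10 from 79874476 to 79883174 on the plus strand, and *Elane* follows 3073 bases downstream on the same strand, from 79886247 to 79888215. *Prtn3* reached 23.3, 26.9 and 20.3 CPM in the Vmed replicates and 125.6, 133.0 and 62.1 CPM in the Vhigh replicates. The Vmed libraries lay close together and each Vhigh library was above all of them. The mean was 23.5 ± 3.30 CPM (SD, n = 3) against 106.9 ± 39.0 CPM (SD, n = 3), with folds of 5.38, 4.95 and 3.06 within the numbered pairs. In the same test its log2 fold change was 2.15 (SE 0.67) with an unadjusted p = 0.011 and an adjusted p = 0.9998, also short of the threshold. For both genes the exact two-sided permutation test over libraries gave p = 0.1, the smallest that 3 libraries against 3 allow. In bulk samples, more cells of a type and more RNA per cell cannot be told apart.

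Both genes overlap a gene on the other strand. In GENCODE annotation, *Gm11505* runs antisense to *Mpo* and *Plppr3* to *Prtn3*. Of the exonic stretches of 50 bases (the length of the reads) of *Mpo* and *Prtn3*, 9.46% and 6.45% are shared with another gene. The search covered either strand and did not record which gene shares them. Whether the counting used strand is not given in the sources used here, and the part of these stretches in the values was not tested.

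*Elane*, the elastase gene next to *Prtn3*, did not follow its neighbour. It had 0, 1.81 and 2.88 CPM in the Vmed replicates and 39.4, 1.29 and 0 CPM in the Vhigh replicates. One library, Vhigh replicate 1, held 420 of its counts, and the other 5 libraries held between 0 and 28. In the same libraries *Prtn3* was at 62.1 CPM or more throughout Vhigh. *Elane* was higher in Vhigh in 1 of 3 numbered pairs (exact two-sided permutation test, p = 0.9). The log2 fold change of 3.21 (SE 2.44, adjusted p = 0.9998) turned to -1.45 without Vhigh replicate 1, and to -0.48 (SE 2.74) with the replicate number as a block. *Ctsg*, which encodes cathepsin G and lies on chromosome 14 from 56099881 to 56102574 on the minus strand, had 0 counts in all 6 libraries, which allows up to 0.249 to 0.362 CPM.

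To show what lies in front of these genes, the 250 bases before the RefSeq start of each were read from GRCm38.p6, where all 10 genes were matched. Short cores of the motifs of factors that act in granulocyte development were searched on both strands: GAGGAA for ETS factors such as PU.1, TTGCNNAA for C/EBP factors, TGTGGT for RUNX, AACTGC for MYB and AGATAA for GATA. None of these words contains another. GAGGAA occurred in 4 of 4 primary genes and in 3 of 6 late genes, against 23.25% of 32851 promoters of the same length. TTGCNNAA occurred in 0 of 4 primary genes and in 4 of 6 late genes (*Ltf*, *Ngp*, *Lcn2* and *S100a9*), against 9.56% of all promoters. TGTGGT was in front of *Ctsg* and *S100a9* (14.05% of all), AACTGC in front of *Ctsg* and *Ngp* (11.1%) and AGATAA in front of *Ltf* and *S100a9* (9.99%). A match of these letters is a description of the sequence and not a binding site. The annotations disagree on the starts: GENCODE starts *Mpo* 203 bases, *Lcn2* 513 bases and *Prtn3* 5191 bases before RefSeq. These windows lie mostly or wholly inside the GENCODE gene, and 0 to 203 bases of each of the 10 windows are exonic in GENCODE. In *Lcn2*, 197 of the 250 bases are exonic. Its TTGCNNAA word, at 216 to 209 bases before the start, and its GAGGAA word, at 20 to 15 bases, lie in those exons. The GAGGAA word of *S100a8* at 36 to 31 bases is also exonic, and that at 170 to 165 bases is not. The AACTGC word of *Ngp*, at 18 to 13 bases, is exonic too. Sequence is therefore given only for the longest stretch of a window outside the GENCODE exons. The 4 primary genes are shown because these genes share a granule and a GAGGAA word but not their expression, and *Ngp* and *Ltf* because they carry TTGCNNAA. They run 5′ to 3′ on the strand of the gene and capitals mark the words found, on either strand. The intervals are chr11:87793534-87793580 (plus) for *Mpo*, chr10:79879417-79879613 (plus) for *Prtn3*, chr10:79886062-79886246 (plus) for *Elane*, chr14:56102575-56102824 (minus) for *Ctsg*, chr9:110419558-110419746 (plus) for *Ngp* and chr9:111019042-111019270 (plus) for *Ltf*.
Mpo: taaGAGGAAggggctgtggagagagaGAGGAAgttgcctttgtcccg
Prtn3: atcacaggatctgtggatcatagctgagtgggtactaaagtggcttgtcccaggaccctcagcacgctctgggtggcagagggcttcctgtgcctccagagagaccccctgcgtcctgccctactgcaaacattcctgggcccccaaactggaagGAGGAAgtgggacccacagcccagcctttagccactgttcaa
Elane: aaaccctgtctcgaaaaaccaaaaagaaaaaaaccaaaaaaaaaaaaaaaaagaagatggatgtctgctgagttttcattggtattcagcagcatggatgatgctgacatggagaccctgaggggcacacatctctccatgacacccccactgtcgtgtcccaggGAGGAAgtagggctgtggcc
Ctsg: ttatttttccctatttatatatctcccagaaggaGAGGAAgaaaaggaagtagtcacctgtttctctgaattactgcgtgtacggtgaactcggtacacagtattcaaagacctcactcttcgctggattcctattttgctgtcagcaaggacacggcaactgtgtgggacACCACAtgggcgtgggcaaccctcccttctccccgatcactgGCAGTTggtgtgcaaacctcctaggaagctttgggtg
Ngp: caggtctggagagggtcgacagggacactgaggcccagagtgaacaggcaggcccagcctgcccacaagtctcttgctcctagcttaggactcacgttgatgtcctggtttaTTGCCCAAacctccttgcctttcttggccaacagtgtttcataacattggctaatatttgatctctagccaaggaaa
Ltf: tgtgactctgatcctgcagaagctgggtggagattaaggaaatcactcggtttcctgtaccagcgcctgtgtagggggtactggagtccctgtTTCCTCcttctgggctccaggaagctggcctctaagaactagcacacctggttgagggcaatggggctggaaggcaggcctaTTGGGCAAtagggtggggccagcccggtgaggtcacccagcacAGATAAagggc

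Counted from the RefSeq start, in *Prtn3* the GAGGAA word lies 95 to 90 bases before the start and in *Elane* 85 to 80 bases, whereas in *Mpo* it occurs at 247 to 242 and again at 224 to 219 bases. *Ngp* holds TTGCNNAA at 138 to 131 bases and, in bases that GENCODE places in an exon, at 11 to 4 bases on the other strand. *Ctsg*, with 0 counts, carries words for ETS, RUNX and MYB in this window.

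*S100a8* and *S100a9* lie on chromosome 3, from 90668978 to 90670035 and from 90692632 to 90695721, and their proteins pair as calprotectin. *S100a8* reached 15.6, 0.72 and 19.2 CPM in the Vmed replicates and 8.63, 0 and 0 CPM in the Vhigh replicates. The fractions overlapped, and *S100a8* was lower in Vhigh in 3 of 3 pairs (exact two-sided permutation test, p = 0.2). Its log2 fold change was -1.97 (SE 2.43, adjusted p = 0.9998), and -5.26 (SE 2.54, adjusted p = 0.987) with the replicate block. *S100a9* reached 7.89, 0 and 4.12 CPM in Vmed and 15.1, 0 and 1.25 CPM in Vhigh. Its log2 fold change was 0.50 (SE 2.52) and turned to -0.31 (SE 2.49) with the replicate block, to -2.70 without Vhigh replicate 1 and to -0.07 without Vmed replicate 2. The libraries numbered 2 had 0.72 and 0 CPM of *S100a8* and none of *S100a9*, and *Mpo* was at its highest for each fraction there.

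The other late genes appeared in at most 2 libraries each. *Ngp*, a cystatin-like granule protein gene, had 131 counts (15.0 CPM) in Vmed replicate 1 and 20 counts (1.84 CPM) in Vhigh replicate 2. *Ltf*, which encodes the iron-binding protein lactoferrin, had 1 and 37 counts in the same libraries (0.11 and 3.41 CPM). *Camp*, the cathelicidin antimicrobial peptide gene, had 5 and 11 counts there (0.57 and 1.01 CPM). These 3 genes thus had counts in the same pair of libraries, one per fraction, and were at 0 in the other 4. The 1 count of *Ltf* in Vmed replicate 1 is below the 3 counts taken as told from 0. *Ltf* therefore stands above that limit in Vhigh replicate 2 only. The 3 genes lie on chromosome 9, *Camp* from 109847379 to 109849617, *Ngp* from 110419747 to 110423012 and *Ltf* from 111019271 to 111042767. *Lcn2*, which encodes the siderophore-binding lipocalin 2, had 29 counts (2.99 CPM) in Vmed replicate 3 and 0 in the rest.

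**Figure D2:**
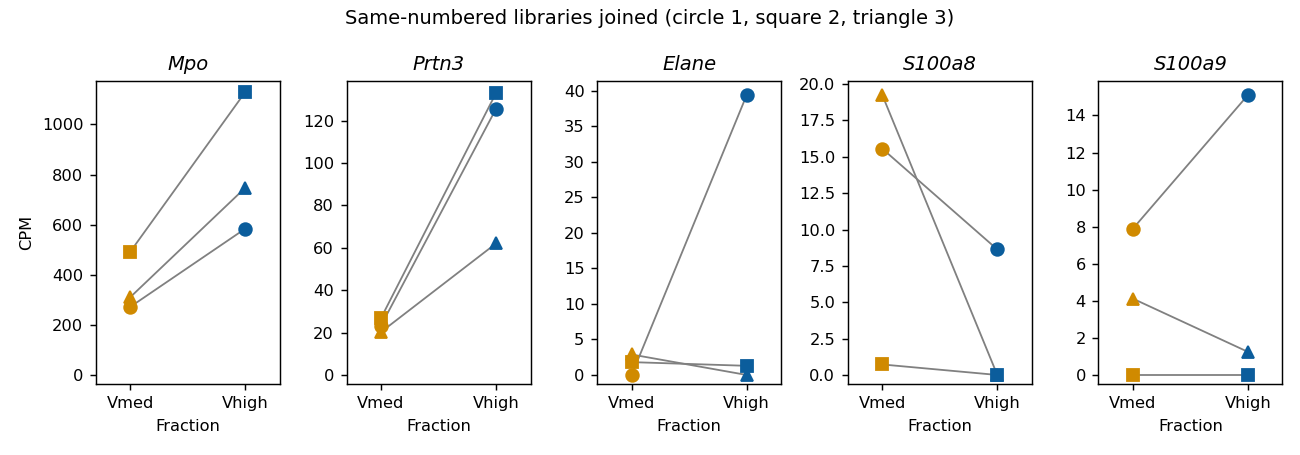
CPM of the 5 granule genes with enough counts to be tested, in Vmed and Vhigh, with lines joining the libraries that carry the same replicate number. *Mpo* and *Prtn3* are higher in Vhigh along each line, *Elane* along 1 of 3 lines, and *S100a8* is lower along each line.

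Levels were compared between genes per length, as RPKM over the union of exons. *Mpo* had 105 ± 34.4 RPKM (SD, n = 3) in Vmed and 240 ± 81.8 RPKM (SD, n = 3) in Vhigh, and *Prtn3* had 13.6 ± 1.91 and 61.7 ± 22.5 RPKM. *Mpo* was above *Prtn3* within each library. Across libraries the lowest *Mpo* value, 79.5 RPKM, and the highest *Prtn3* value, 76.8 RPKM, lay side by side, and with the length of the longest transcript they were 99.0 and 129.8 RPKM. *S100a8*, *S100a9* and *Elane* followed in the mean over 6 libraries, with 10.6, 9.06 and 7.69 RPKM, and their ranges overlapped in each fraction, so that no order among them stands out from their spread. *Prtn3* was above the 3 of them within each Vhigh library and, at 11.7 to 15.5 RPKM in Vmed, overlapped there with *S100a8* (1.04 to 27.7) and *S100a9* (0 to 15.1). *Ngp*, *Camp*, *Lcn2* and *Ltf* averaged 2.30, 0.348, 0.190 and 0.170 RPKM and *Ctsg* was at 0.

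The composition of the granule transcripts was then compared between the fractions. The 4 primary genes summed to 296, 521 and 334 CPM in Vmed and to 749, 1265 and 810 CPM in Vhigh, and *Mpo* alone made up 75.6% to 94.4% of the counts on the 10 genes. The 6 late genes summed to 39.1, 0.72 and 26.4 CPM in Vmed and to 23.7, 6.26 and 1.25 CPM in Vhigh. The primary sums did not overlap between the fractions and the late sums did. The late share of the granule counts was 11.7% (Wilson 95% interval 10.6 to 12.9), 0.139% (0.063 to 0.302) and 7.31% (6.49 to 8.22) in the Vmed replicates. It was 3.07% (2.72 to 3.46), 0.493% (0.389 to 0.624) and 0.154% (0.093 to 0.253) in the Vhigh replicates. Reads without molecular identifiers are not independent molecules, and these intervals hold counting error alone. The mean share was 6.38 ± 5.83% (SD, n = 3) in Vmed and 1.24 ± 1.59% (SD, n = 3) in Vhigh. Vmed replicate 2 and Vhigh replicate 3 could not be told apart, as their intervals overlapped. On the log2 scale, with 2 counts added to each sum, the primary sum exceeded the late sum by 2.91, 9.08 and 3.65 in Vmed and by 4.97, 7.62 and 9.16 in Vhigh. The balance between the primary genes also varied, as the ratio of *Mpo* to *Prtn3* counts was 11.7, 18.3 and 15.3 in Vmed and 4.65, 8.50 and 12.05 in Vhigh, lower in Vhigh within each numbered pair with a small overlap between the fractions.

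**Figure D3:**
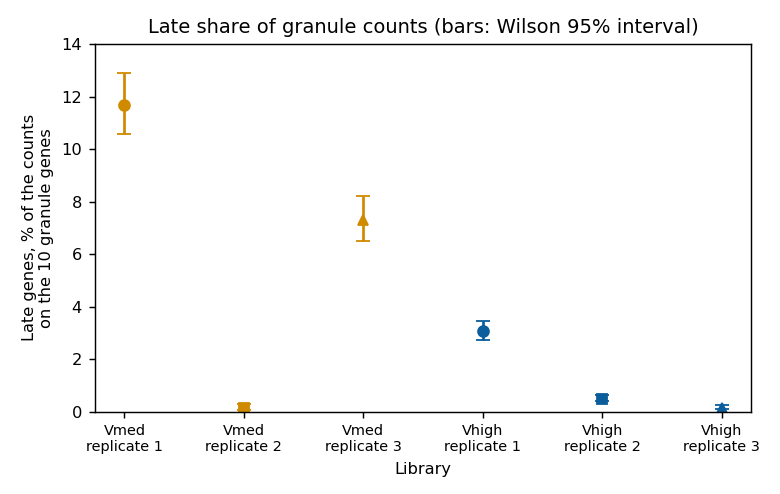
Share of the counts on the 10 granule genes that falls on the 6 late genes, in percent, for each library, with Wilson 95% intervals for counting error. Vmed replicates 1 and 3 lie at 11.7% and 7.31%, and Vmed replicate 2 at 0.139%, with an interval that overlaps that of Vhigh replicate 3 at 0.154%.

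Across all genes, 12688 of 24062 passed the filter on low counts, among them 5 of the 10 granule genes (*Mpo*, *Prtn3*, *Elane*, *S100a8* and *S100a9*). edgeR's quasi-likelihood test called 0 of the 12688 genes (0%) at an adjusted p of 0.05, and so 0 of the granule genes, while 259 genes had an unadjusted p under 0.05. *Mpo* and *Prtn3* were among the 110 genes (0.867%) with an unadjusted p under 0.05 that were higher in Vhigh. They were also among the 527 tested genes (4.15%) for which all 3 Vhigh libraries exceeded all 3 Vmed libraries. Other tests called some genes higher in Vhigh, DESeq2 20 (0.167%) and edgeR's likelihood ratio test with the replicate block 26 (0.205%), and none of them was a granule gene. In that last test the log2 fold changes were 1.16 for *Mpo* (SE 0.35, adjusted p = 0.128) and 2.08 for *Prtn3* (SE 0.71, adjusted p = 0.315). The 3 tested primary genes had a median log2 fold change of 2.15 and the 2 tested late genes of -0.73, against -0.02 for all tested genes, of which 48.9% were above 0. These medians were 1.16 and -2.79 with the replicate block, and 1.28 and -2.70 without Vhigh replicate 1. Over all members, untested ones included, the median difference of mean log2 CPM was 1.14 for the primary and -0.59 for the late genes, against 0.04 for all genes with a count.

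**Figure D4:**
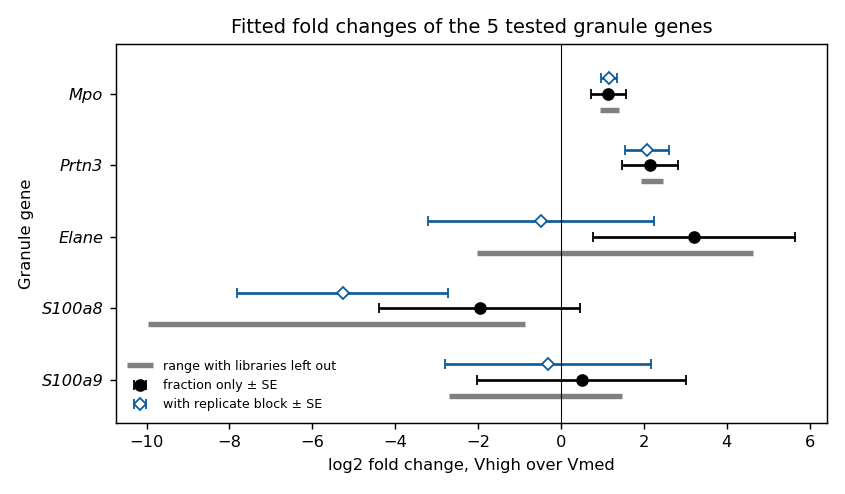
Log2 fold changes, Vhigh over Vmed, of the 5 tested granule genes fitted with the fraction only (filled circles) and with the replicate block (open diamonds), both with standard errors, and the range with libraries left out (grey). *Mpo* and *Prtn3* stay above 0, *S100a8* stays below 0 in the fits that could test it, and *Elane* and *S100a9* lie on both sides.

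The other genes of granule formation were taken from 5 lists, in which 0 genes were called higher and 0 lower by the quasi-likelihood test. Of 9 other promyelocyte and primary granule genes, 7 were tested and 4 had a positive log2 fold change, with a median of 1.36. The most abundant were *Ctsc* (cathepsin C, which activates the granule proteases), *Srgn* (serglycin, the proteoglycan that packs them) and *Serpinb1a* (an inhibitor of them). *Ctsc* was at 496, 263 and 250 CPM in Vmed and 465, 97.0 and 91.5 CPM in Vhigh, lower in Vhigh in each numbered pair and so opposite in sign to *Mpo* and *Prtn3*. *Srgn* had 165, 51.5 and 26.9 CPM in Vmed and 361, 177 and 92.5 CPM in Vhigh, and *Serpinb1a* had 41.0, 30.6 and 6.07 against 90.0, 91.7 and 36.1 CPM. Both were higher in Vhigh in each numbered pair, with overlapping fractions and log2 fold changes of 1.36 (SE 0.78) and 1.45 (SE 0.91).

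Among 12 other secondary and tertiary granule genes, 6 were tested and 2 had a positive log2 fold change, with a median of -0.39. *Anxa1* (annexin A1), *Hp* (haptoglobin) and *Slc11a1* (a metal transporter of phagosomes) led the list, with means of 54.9 ± 43.5, 26.5 ± 27.8 and 26.7 ± 17.0 CPM (SD, n = 3) in Vmed and 34.4 ± 20.5, 25.3 ± 21.2 and 7.25 ± 12.6 CPM (SD, n = 3) in Vhigh. Of 10 surface and secretory genes of mature neutrophils, 9 were matched and 5 tested, 4 of them positive, with a median of 1.17. *Csf3r*, the G-CSF receptor gene, had 40.6, 22.2 and 8.03 CPM in Vmed and 32.0, 76.3 and 60.0 CPM in Vhigh. *Il1r2*, a decoy receptor for interleukin 1, had 122 CPM in Vhigh replicate 1 and 0.24 to 6.07 CPM in the other 5 libraries, and *Trem1*, an activating myeloid receptor, had 42.7 CPM there and 0 to 3.13 CPM elsewhere. Vhigh replicate 1 was thus the library with the highest *Elane*, *S100a9*, *Il1r2* and *Trem1*. Other genes went the other way there: *Ltf*, *Camp*, *Ngp* and *Lcn2* had no count. *S100a8* (8.63 CPM) was below Vmed replicates 1 and 3, and *Csf3r* was the lowest of the Vhigh libraries. The *Gata2* level of Vhigh replicate 1 was also the lowest of the Vhigh libraries. That library had the fewest genes with a count, 10427, and the part of this in its values was not tested. Of 8 mast cell and basophil markers, *Cpa3* alone, named here after its values were seen, had 136.9 CPM in it and 0 to 23.8 CPM in the other libraries, *Prss34* had 0.09 CPM in it, and the remaining 6 were at 0 there.

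Of 10 transcription factors of granulocyte development, 8 were tested, 6 of them positive, with a median of 1.14. *Myb*, required for definitive hematopoietic progenitors, had 1.83, 1.33 and 5.97 CPM in Vmed and 73.3, 199 and 104 CPM in Vhigh, without overlap. Its log2 fold change was 5.26 (SE 0.81, adjusted p = 0.664), and DESeq2, the likelihood ratio tests and the quasi-likelihood test without a filter called it. *Runx1*, needed for hematopoietic cells to emerge from endothelium, had 4.58, 30.5 and 31.2 against 41.9, 114 and 141 CPM, a log2 fold change of 2.12 (SE 0.87). *Spi1*, which encodes PU.1, had 12.6, 2.89 and 78.2 CPM in Vmed and 20.2, 4.97 and 175 CPM in Vhigh, and differed more between replicate numbers than within them. *Cebpe*, the factor known for driving secondary granule genes, had 2.16 CPM in Vmed replicate 3, 0.18 CPM in Vhigh replicate 2 and 0 in the other 4 libraries. Of 10 genes of granule and protease biogenesis, all were tested and 7 were positive, with a median of 0.29. *Ctsc* and *Srgn* led this list too, followed by *Ap3b1* (a subunit of the AP-3 sorting adaptor), with 55.4, 64.5 and 125 CPM in Vmed and 132, 78.7 and 171 CPM in Vhigh.

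**Figure D5:**
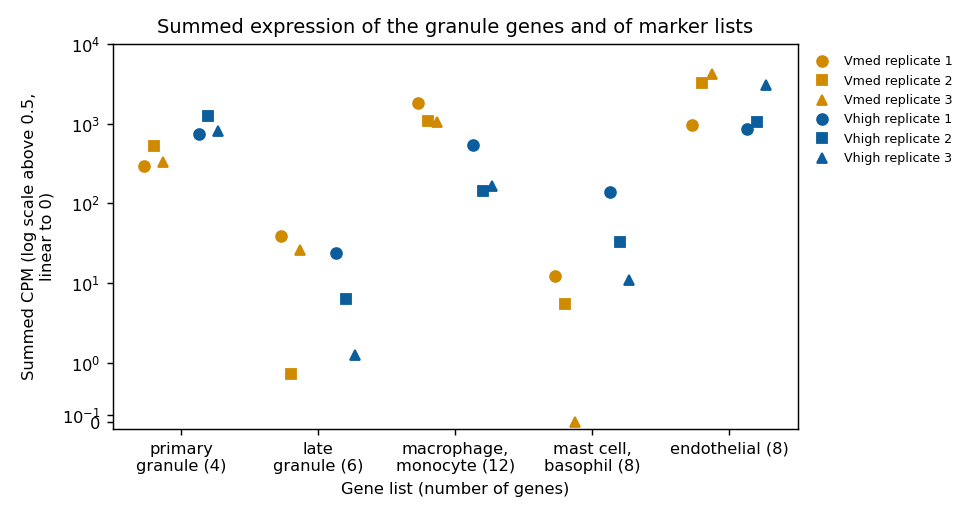
Summed CPM of the primary and late granule genes and of 3 marker lists in each library, on a log scale that turns linear toward 0, with Vmed in orange and Vhigh in blue. The primary sums are higher and the macrophage and monocyte sums lower in each Vhigh library than in any Vmed library, and the late and endothelial sums overlap.

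The macrophage and monocyte sums were lower in Vhigh without overlap, the opposite order to *Mpo* and *Prtn3*. Each listed marker had a log2 fold change below 0, and single markers differed in whether the fractions overlapped. Of the 3 most abundant genes of the list, *C1qb* (log2 fold change -3.50) was lower in Vhigh without overlap. *Lyz2* (-0.27) and *Cd68* (-1.89) overlapped between the fractions. *Lyz2* had 227, 85.1 and 82.9 CPM in Vmed and 214, 49.2 and 59.4 CPM in Vhigh. *S100a8* and *S100a9* are also expressed by monocytes. Eosinophil markers (8 genes) summed to at most 69.6 CPM in Vmed and 4.74 CPM in Vhigh, with none in all 6 libraries, and erythroid markers (10 genes, 4 at 0 throughout) to between 180 and 601 CPM in Vmed and between 98.2 and 233 CPM in Vhigh. The part of these cells in the granule values was not tested.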

How the data were processed

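RNA was sequenced from 6 libraries of sorted E10.5 AGM cells, 3 per fraction, and each library was assigned by its label. The authors prepared RNA with the mirVana kit and SMARTer amplification, sequenced single reads of 50 bases, aligned them to GRCm38/mm10 (Tophat with Bowtie 1.1.2, and HTSeq, per the submitters' processing notes) and deposited raw counts per gene. Strand settings and annotation of the counting are not given in the sources used here. Lines that name no gene, 55.0% to 77.2% of all, were left out of totals and tests.

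CPM used the total of gene counts. For the comparison of Vhigh with Vmed, edgeR 4.0.16 was run in R 4.3.3 (filterByExpr, TMM, quasi-likelihood test, Benjamini-Hochberg threshold 0.05), with the fraction as the only term. The authors also used edgeR at this threshold and reported genes that differed in either direction between these fractions. Their list was not compared here. Log2 CPM used a prior count of 2. RPKM and positions used GENCODE M21 of GRCm38, and promoters RefSeq (GRCm38.p6). The procedure was also run on simulated counts with known changes. Its outcome is not given here, so the power of the test at the spread of these libraries is not shown. Same-numbered libraries deviated together (r = 0.213, 0.207 and 0.390, across genes, against -0.290 to -0.005 for other numbers), so the numbers in the labels were taken as pairs and a replicate block was fitted as an alternative. Deviations were taken from the mean of each fraction, so positive same-number values push the others below 0. The negative values are therefore no separate evidence of pairing. No pair of libraries repeated another (chi-square per degree of freedom of 93.7 or more). Other alternatives were further normalizations and filters, edgeR's likelihood ratio test, DESeq2 1.42.0, limma-voom (limma 3.58.1), removal of *Rn45s* and leaving out libraries. Named were the 10 genes, the 3 most abundant genes of each list, and the 5 genes closest in pattern. *Plppr3*, *Gm11505*, *Cebpe*, *Gata2*, *Cpa3* and *Prss34* were named outside this rule, after their values or positions were seen. The members and lists were chosen with earlier results of these data known.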

Additional observations from a re-analysis of the deposited data

How the results depend on the processing

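No granule gene was called under any of the alternatives or with any library left out. Over all genes, where the quasi-likelihood test called 0, the count was 37 without the filter on low counts, 21 by edgeR's likelihood ratio test, 51 by DESeq2 and 74 by the likelihood ratio test with the replicate block, and it ranged from 0 to 1 with libraries left out. The replicate block changed no call among the granule genes. The median log2 fold change of the tested primary genes, 2.15, was 1.17 with limma-voom, 1.16 with the replicate block and 1.16 with the replicate block in the likelihood ratio test, and it ranged from 1.14 to 2.47 with libraries left out, falling to 1.28 without Vhigh replicate 1, since *Elane* then changed sign. That of the late genes, -0.73, was -2.57 with limma-voom, -2.79 with the replicate block and -2.85 in the likelihood ratio test with the block, and it ranged from -2.70 to -0.11 with libraries left out. *Elane* reversed to -0.48 with the replicate block and to -0.53 in the likelihood ratio test with the block, and ranged from -2.02 to 4.63 with libraries left out. *S100a9* reversed to -0.46 with limma-voom, to -0.31 with the replicate block and to -0.32 in the likelihood ratio test with the block, and ranged from -2.70 to 1.48. *Mpo* ranged from 0.94 to 1.39, *Prtn3* from 1.92 to 2.47 and *S100a8* from -9.96 to -0.86, each on one side of 0. With both libraries numbered 1 left out, *S100a8* did not pass the filter and has no value. Its -9.96, without Vhigh replicate 1, has no standard error, as the remaining Vhigh libraries had no count of it. DESeq2 gave *Elane* no p-value. When lengths came from the longest transcript, *Lcn2* and *Camp* exchanged places 7 and 8 in the order per length. *Ltf*, *Camp*, *Ngp* and *Lcn2* entered the fit without a filter, with log2 fold changes of 4.26, 0.52, -3.27 and -6.38, none of them called, and *Ctsg*, with no count, entered none.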

Other observations

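Genes with a pattern like that of the granule genes were ranked by Pearson's r over the 6 libraries among 7736 genes with a mean of at least 20 CPM. These values describe the 6 libraries, which differ in fraction and depth, and carry no test. The mean log2 CPM of *Mpo*, *Elane* and *Prtn3* was followed most closely by *Ppp1r9a* (r = 0.985), *Xrcc4* (0.978), *Kctd9* (0.976), *Wrap53* (0.975) and *Zdbf2* (0.972), with Spearman's rho from 0.943 to 1, and 72 of the 7736 genes had r above 0.9. *Elane* weighed most in this mean, as it spanned -2.33 to 5.31 log2 CPM. *Mpo* spanned 8.09 to 10.1 and *Prtn3* 4.36 to 7.06, so the ranking is not one of genes that follow *Mpo* and *Prtn3*. That of *S100a8* and *S100a9* was followed most closely by *Tmem65* (r = 0.966), *Pex3* (0.964), *Gabarap* (0.957), *Riok3* (0.938) and *Ngfrap1* (0.936), with rho from 0.657 to 1, and 14 genes had r above 0.9. None of these 10 genes is on the granule lists.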
